A study of Mus musculus with 4 samples.

Results

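Type I interferon-stimulated genes are the genes that cells switch on when interferon alpha or beta reaches them. A list of 37 such genes was read across the cell classes of mouse retina and choroid. The genes were chosen by name, with earlier results of these data known. Of these genes, 35 had a row among the 24783 genes of the count table. Mx1 and Mx2 were not analysed here. The samples were retina and choroid of wild-type mice profiled by droplet single-cell RNA sequencing, with 1 library in each of 4 groups. The aged CNV library came from mice older than 18 months taken 3 days after laser photocoagulation, and the aged control library from mice of that age without lesions. The young CNV library came from mice aged 6 to 8 weeks taken 3 days after laser, and the young control library from unlasered mice of that age. CNV stands for choroidal neovascularization, the growth of choroidal vessels that follows laser rupture of Bruch's membrane (532 nm, 200 mW, 0.15 s, 100 µm spot). Retina and choroid were digested apart and mixed before capture, and retinal rods were removed in part with a CD73 antibody, so the share of rods is set by that step.

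Interferon alpha and beta bind a receptor made of Ifnar1 and Ifnar2, whose kinases Jak1 and Tyk2 phosphorylate Stat2. A complex that holds Stat2 and Irf9 then binds the interferon-stimulated response element in the promoters of the antiviral genes listed here. Among the products, Irf7 amplifies interferon synthesis, Isg15 is a ubiquitin-like protein that is joined to other proteins, and the Ifit, Oas and Ifitm families act on viral RNA or on virus entry. In retina, microglia, Müller glia and vessels are known to respond to these cytokines after injury and infection.

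The response element can be read in the members' promoters, which are shown as a description of the list. RefSeq promoter windows on GRCm38.p6, from 250 bases before to 50 bases after the annotated start, were matched to 28 of the 35 genes. The core of the element, GAAA, any 2 bases, then GAAA, searched on both strands, was present in 14 of those 28 genes (50%), against 628 of 16706 genes with a window (3.76%). The 3 windows below hold it more than once and belong to genes that recur in the results. Capitals mark the core, and matches that overlap are joined in 1 run of capitals.
Isg15, chr4:156200769-156201068, minus strand: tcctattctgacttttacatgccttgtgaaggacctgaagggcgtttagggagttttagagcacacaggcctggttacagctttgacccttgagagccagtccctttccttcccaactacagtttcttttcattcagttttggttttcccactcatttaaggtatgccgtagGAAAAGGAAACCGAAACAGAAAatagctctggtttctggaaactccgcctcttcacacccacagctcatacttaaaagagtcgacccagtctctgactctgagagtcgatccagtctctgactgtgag
Ifit3, chr19:34583279-34583578, plus strand: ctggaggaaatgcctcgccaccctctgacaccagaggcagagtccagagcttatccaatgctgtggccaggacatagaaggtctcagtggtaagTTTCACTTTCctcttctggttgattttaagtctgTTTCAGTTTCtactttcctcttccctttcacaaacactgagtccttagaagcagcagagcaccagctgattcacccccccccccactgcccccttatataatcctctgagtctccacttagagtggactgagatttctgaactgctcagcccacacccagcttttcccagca
Bst2, chr8:71537423-71537722, minus strand: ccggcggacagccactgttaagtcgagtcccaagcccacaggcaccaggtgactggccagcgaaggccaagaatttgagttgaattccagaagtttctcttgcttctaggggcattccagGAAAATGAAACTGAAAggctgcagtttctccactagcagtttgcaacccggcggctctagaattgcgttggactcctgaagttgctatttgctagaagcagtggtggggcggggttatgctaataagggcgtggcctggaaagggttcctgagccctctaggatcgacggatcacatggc
In Isg15 the core began 78, 72 and 66 bases before the start, so the 3 matches overlap. In Ifit3 the 2 matches lie on the other strand, where the letters read TTTC, any 2 bases, then TTTC. The interferon gamma activation site core, TTC, any 3 bases, then GAA, searched in the same way, was in 7 of the 28 windows (25%), against 1489 of 16706 (8.91%). The window of Irf7 held no match to the response element core. A match is a description of letters, not a tested binding site. The genes were listed as interferon-stimulated, so the share with a match is a property of the list. Each gene's median log2 ratio after laser over classes had a median of 1.6 (0.891 to 3.3) with the core and 1.5 (0.775 to 2.79) without it in aged mice. In young mice these were 1.07 (0.248 to 1.4) and 0.632 (0.245 to 2.01), so the ranges overlapped at both ages. Ifi27, Oas2, Usp18, Dhx58, Rtp4, Zbp1 and Parp14 had no window in the table. By position, 4 Ifit genes lie together on chromosome 19, Oasl1 and Oasl2 side by side on chromosome 5, with Oas1a, Oas2 and Oas3 in another stretch of it, and Rsad2 and Cmpk2 side by side on chromosome 12. Ifit3 and Ifit3b transcripts were 97.8% identical over 1700 aligned bases, so how their reads were divided is uncertain and their counts are best read together.

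The libraries held 7731 (aged CNV), 6676 (aged control), 10867 (young CNV) and 11427 (young control) cells, with median UMIs per cell of 6875, 6427.5, 7223 and 2593 in that order. UMIs are counted RNA molecules, and the young control library was the shallow one. Total UMIs per library ran from 50848238 to 111908519, and any 2 libraries shared 14 to 29 cell barcodes. Cells were clustered without the interferon genes and classes were named from marker genes, so each class is written "-like"; names rebuilt in this way can differ from the study's own. UMIs were summed over each class in each library and scaled to the total of that class (CPM, counts per 1e6 UMIs). With 1 library a group there is no replicate and no test. A gene was compared where the 2 libraries together held at least 20 UMIs, and it is called higher or lower where its CPM ratio was at least 2. Intervals after a ratio are exact 95% intervals that cover counting error only, not differences between mice. Whether the mice of a library were pooled was not stated in the labels, and a class with fewer responding cells and one with less RNA per cell cannot be told apart from a sum.

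After laser injury, more of the compared genes passed the 2-fold rule upward than did not in 10 of 12 classes in aged mice and in 5 of 13 in young mice. In aged mice, 224 of 324 pairs of a gene and a class were at least 2-fold higher in aged CNV than in aged control (69.14%) and 1 was lower. Across the 12 classes compared, 3.69 to 35.8% of all genes passed the rule upward and 1.52 to 11.1% downward. In young mice, 150 of 330 pairs in 13 classes were higher in young CNV than in young control (45.45%) and 2 were lower, where 1.56 to 23.8% of all genes passed upward and 2.15 to 8.57% downward. The median log2 ratio of the compared genes was above the median of all genes in 12 of 12 classes in aged mice and in 11 of 13 in young mice. Epithelial-like and erythroid-like cells were the exceptions. The heat map of laser ratios shows each gene in each class.

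**Figure D1:**
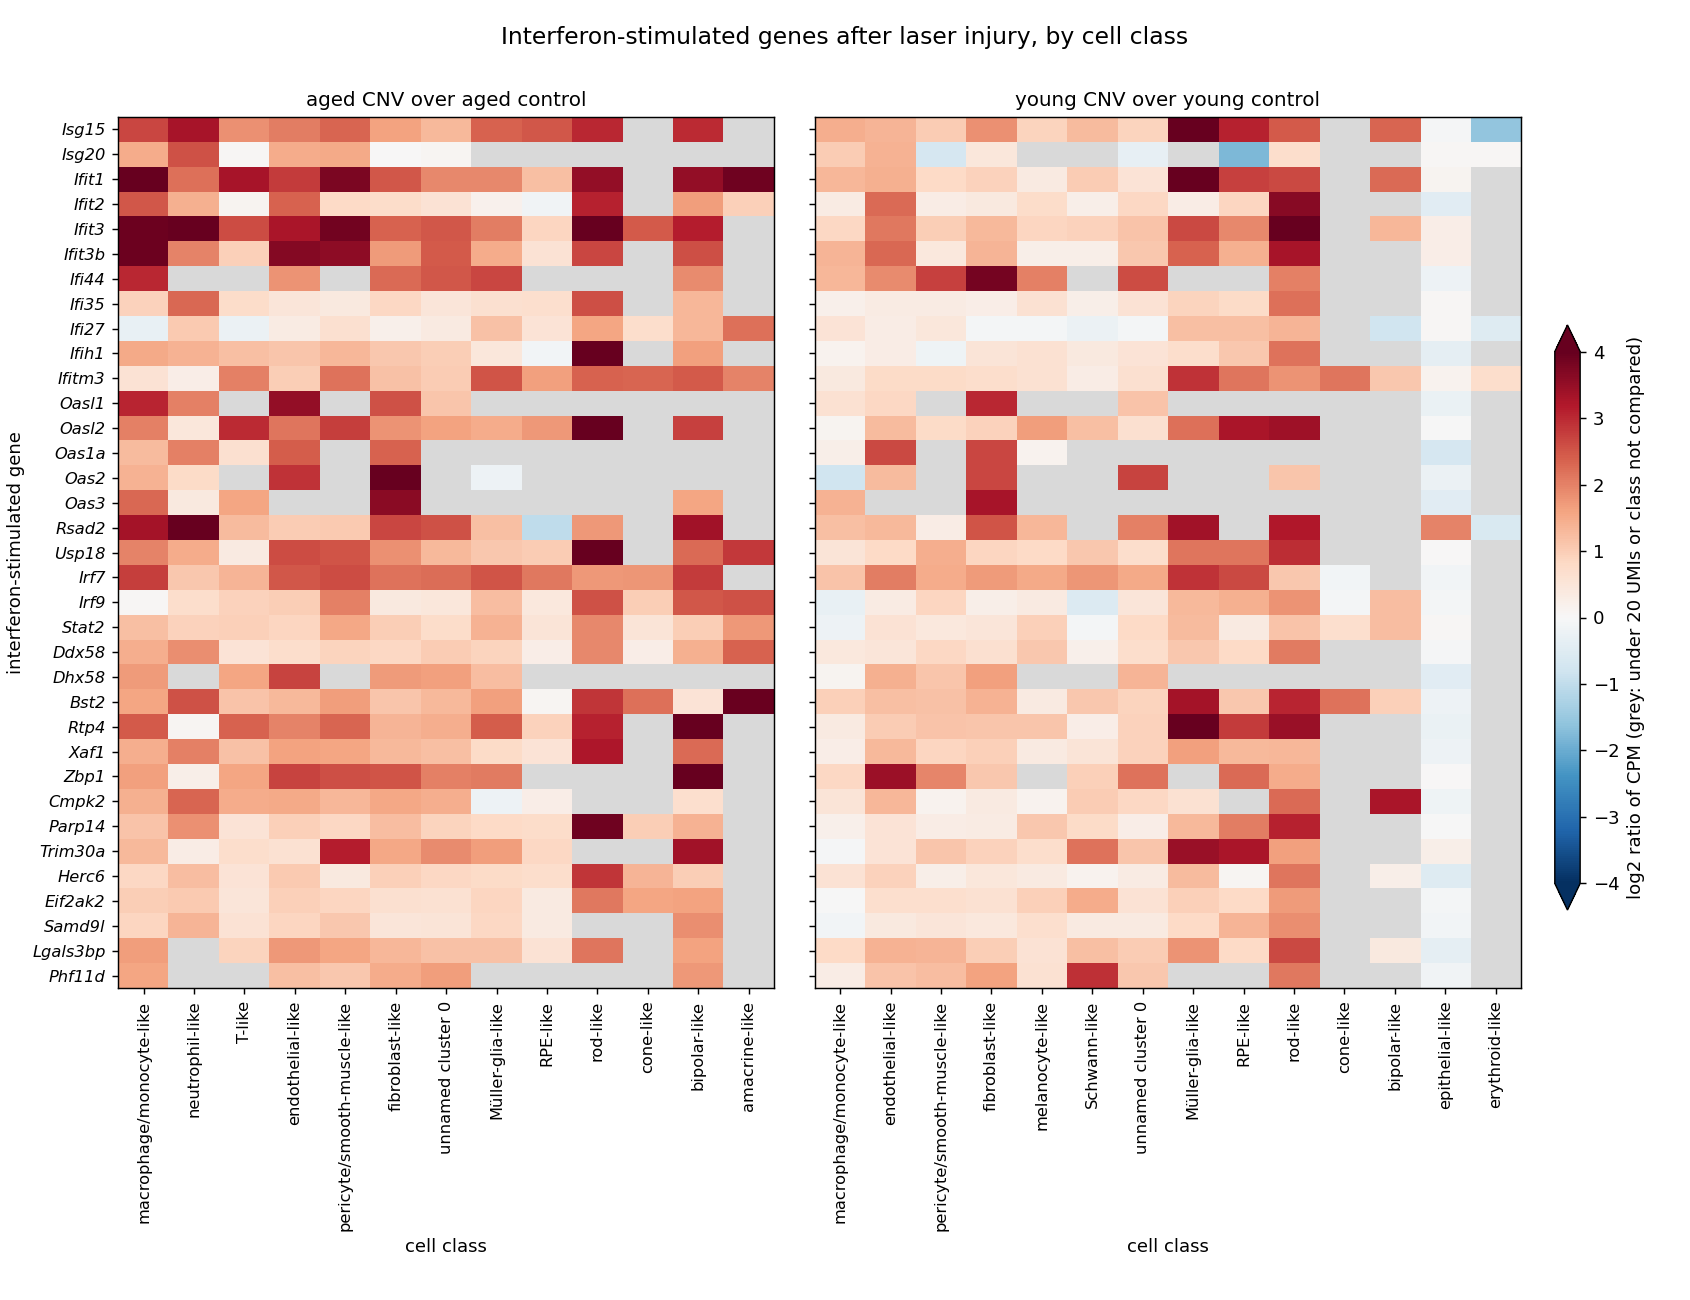
Log2 ratio of CPM after laser injury for the 35 genes (rows) in each class (columns), aged CNV over aged control on the left and young CNV over young control on the right; grey marks genes with under 20 UMIs. Red, higher after laser, fills most cells of both panels, with 224 of 324 pairs at least 2-fold higher in aged mice and 150 of 330 in young mice.

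Isg15 was called higher after laser in most classes compared, and the enzymes that attach and remove its product in a varying number of them. Isg15 in endothelial-like cells was at 193 CPM in aged CNV and 47.3 CPM in aged control, and at 350 CPM in young CNV and 138 CPM in young control. In Müller-glia-like cells it was at 69.1 CPM in aged CNV and 13.6 CPM in aged control, and at 114 CPM in young CNV and 4.6 CPM in young control, a young ratio of 24.9 (13.9 to 49.1). The control levels in that class depended on the removal of predicted doublets. With these kept, the log2 ratio of Isg15 in aged control over young control went from 1.56 to -0.072. Isg15 was called higher in 10 of 10 classes with enough UMIs in aged mice and in 9 of 12 in young mice, and lower in 1 of those 12, erythroid-like cells. Usp18, which strips Isg15 from proteins and damps receptor signalling, was higher in 10 of 11 classes in aged mice and in 5 of 10 in young mice. Herc6, the ligase that joins Isg15 to targets in mouse, passed 2-fold in 4 of 11 classes in aged mice and 2 of 11 in young mice.

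The Ifit genes, which encode proteins that bind viral RNA, reached ratios above 10 in several classes of aged mice. In macrophage/monocyte-like cells Ifit3 was at 198 CPM in aged CNV and 12.9 CPM in aged control, 15.3-fold higher (9.81 to 25.2). The same class held 113 CPM in young CNV and 63.1 CPM in young control, under the 2-fold rule. Ifit1 was at 64.9 CPM in aged CNV and 3.24 CPM in aged control macrophage/monocyte-like cells, and at 56 CPM in young CNV and 22.2 CPM in young control. The CNV libraries of both ages therefore stood close for Ifit1, and the aged control library lay lowest. In rod-like cells Ifit3 was at 89.1 CPM in aged CNV and 3.33 CPM in aged control, and at 32.6 CPM in young CNV and 1.69 CPM in young control. Ifit1 passed 2-fold in 11 of 11 classes in aged mice and 7 of 11 in young mice, Ifit3 in 10 of 11 and 6 of 11. Ifit2 passed in 5 of 11 and 2 of 10.

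The Oas genes encode enzymes that make oligoadenylates, the trigger of RNase L, and the Oasl genes are their relatives. Oasl2 was the most widely measured of them and passed 2-fold in 9 of 10 classes in aged mice and 6 of 10 in young mice. Müller-glia-like cells held Oasl2 at 305 CPM in aged CNV and 108 CPM in aged control, and at 221 CPM in young CNV and 48.3 CPM in young control. Oas1a, Oas2 and Oas3 reached 20 UMIs in 5 or fewer classes of each laser comparison. In macrophage/monocyte-like cells Oas3 was at 82.9 CPM in aged CNV and 16.8 CPM in aged control, and at 50.8 CPM in young CNV and 19.4 CPM in young control. Oas2 differed between the ages there, at 72.6 CPM in aged CNV and 27.8 CPM in aged control, and at 59 CPM in young CNV and 103 CPM in young control. In fibroblast-like cells Oas2 was low in every library, at 14.4, 0.734, 8.85 and 1.39 CPM in aged CNV, aged control, young CNV and young control.

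Among the products that act at membranes, Ifitm3, which blocks virus entry, had enough UMIs in every class and was above a ratio of 1 in all of them, 12 of 12 in aged mice and 13 of 13 in young mice. Its level in endothelial-like cells was 2136 CPM in aged CNV and 1090.3 CPM in aged control, and 2706 CPM in young CNV and 1602 CPM in young control. Its larger ratios were in classes with lower levels: 400 CPM in aged CNV and 69.9 CPM in aged control Müller-glia-like cells, and 560 CPM in young CNV and 75.9 CPM in young control. Bst2, tetherin, which holds budding virus at the cell surface, was at 341 CPM in young CNV and 34.1 CPM in young control Müller-glia-like cells, 10-fold higher (7.97 to 12.7). In aged mice the same class held 117 CPM in aged CNV and 37.5 CPM in aged control. Rsad2, viperin, which makes a chain-terminating nucleotide, was at 177 CPM in aged CNV and 17.5 CPM in aged control macrophage/monocyte-like cells, and at 79.1 CPM in young CNV and 34.7 CPM in young control. Cmpk2, its neighbour and a mitochondrial nucleotide kinase, passed 2-fold in 6 of 9 classes in aged mice and 4 of 10 in young mice.

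The transcription factors of the pathway differed in how many classes passed. Irf7 passed 2-fold in 11 of 11 classes in aged mice and 9 of 11 in young mice. Among the aged classes, neutrophil-like cells had 6 UMIs of Irf7 in aged control, and their log2 ratio of 1.08 turned to -0.33 in cells thinned to 1000 UMIs. In macrophage/monocyte-like cells Irf7 was at 216 CPM in aged CNV and 31.7 CPM in aged control, 6.83-fold higher (5.11 to 9.31). In the same class it was at 188 CPM in young CNV and 84.6 CPM in young control, 2.23-fold higher (1.85 to 2.69). Irf9 and Stat2, which are present before interferon arrives, passed 2-fold in 5 of 12 classes each in aged mice and in 4 and 3 of 12 in young mice. Stat2 in fibroblast-like cells was at 116 CPM in aged CNV and 59.1 CPM in aged control, and at 53.5 CPM in young CNV and 38.4 CPM in young control. Irf7 in fibroblast-like cells was at 54 CPM in aged CNV and 12 CPM in aged control, and at 37.7 CPM in young CNV and 11.7 CPM in young control, so the controls were alike.

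The sensors of foreign nucleic acid were also higher after laser, in a varying number of classes. Ifih1 (MDA5) and Ddx58 (RIG-I), which detect viral RNA, passed 2-fold in 8 of 10 and 5 of 12 classes in aged mice and in 2 of 10 and 3 of 10 in young mice. Dhx58, their regulatory relative, reached 20 UMIs in 5 classes of each comparison and was higher in 5 of them in aged mice and 3 in young mice. Zbp1, which senses nucleic acids in the Z form, was at 54.1 CPM in aged CNV and 8.32 CPM in aged control endothelial-like cells, and at 52.6 CPM in young CNV and 4.92 CPM in young control. The CNV libraries of both ages were alike, and the young ratio was 10.7 (7.14 to 16.7). Eif2ak2 (PKR), which stops translation on double-stranded RNA, passed 2-fold in 4 of 11 classes in aged mice and 2 of 10 in young mice.

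The remaining genes fell into a wide and a narrow group by the number of classes. Rtp4, a receptor transporter, passed 2-fold in 8 of 10 classes in aged mice and 7 of 10 in young mice, and Lgals3bp, a secreted galectin-binding glycoprotein, in 7 of 9 and 5 of 11. Xaf1, a partner of the apoptosis inhibitor XIAP, passed in 8 of 10 and 4 of 10, and Phf11d, a PHD finger protein, in 5 of 5 and 5 of 8. Ifi44 passed in each of the 5 classes measured in aged mice and in 6 of 7 in young mice. Trim30a, a TRIM protein that damps NF-kappaB signalling, passed in 5 of 9 and 5 of 10, and Parp14, an ADP-ribosyltransferase, in 5 of 11 and 4 of 10. Ifi35, Samd9l, Ifi27 and Isg20 passed in 3 to 5 classes in aged mice and 1 to 3 in young mice. Ifi27, a small membrane protein, was in RPE-like cells at 553 CPM in aged CNV and 381 CPM in aged control, and at 594 CPM in young CNV and 255 CPM in young control.

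**Figure D2:**
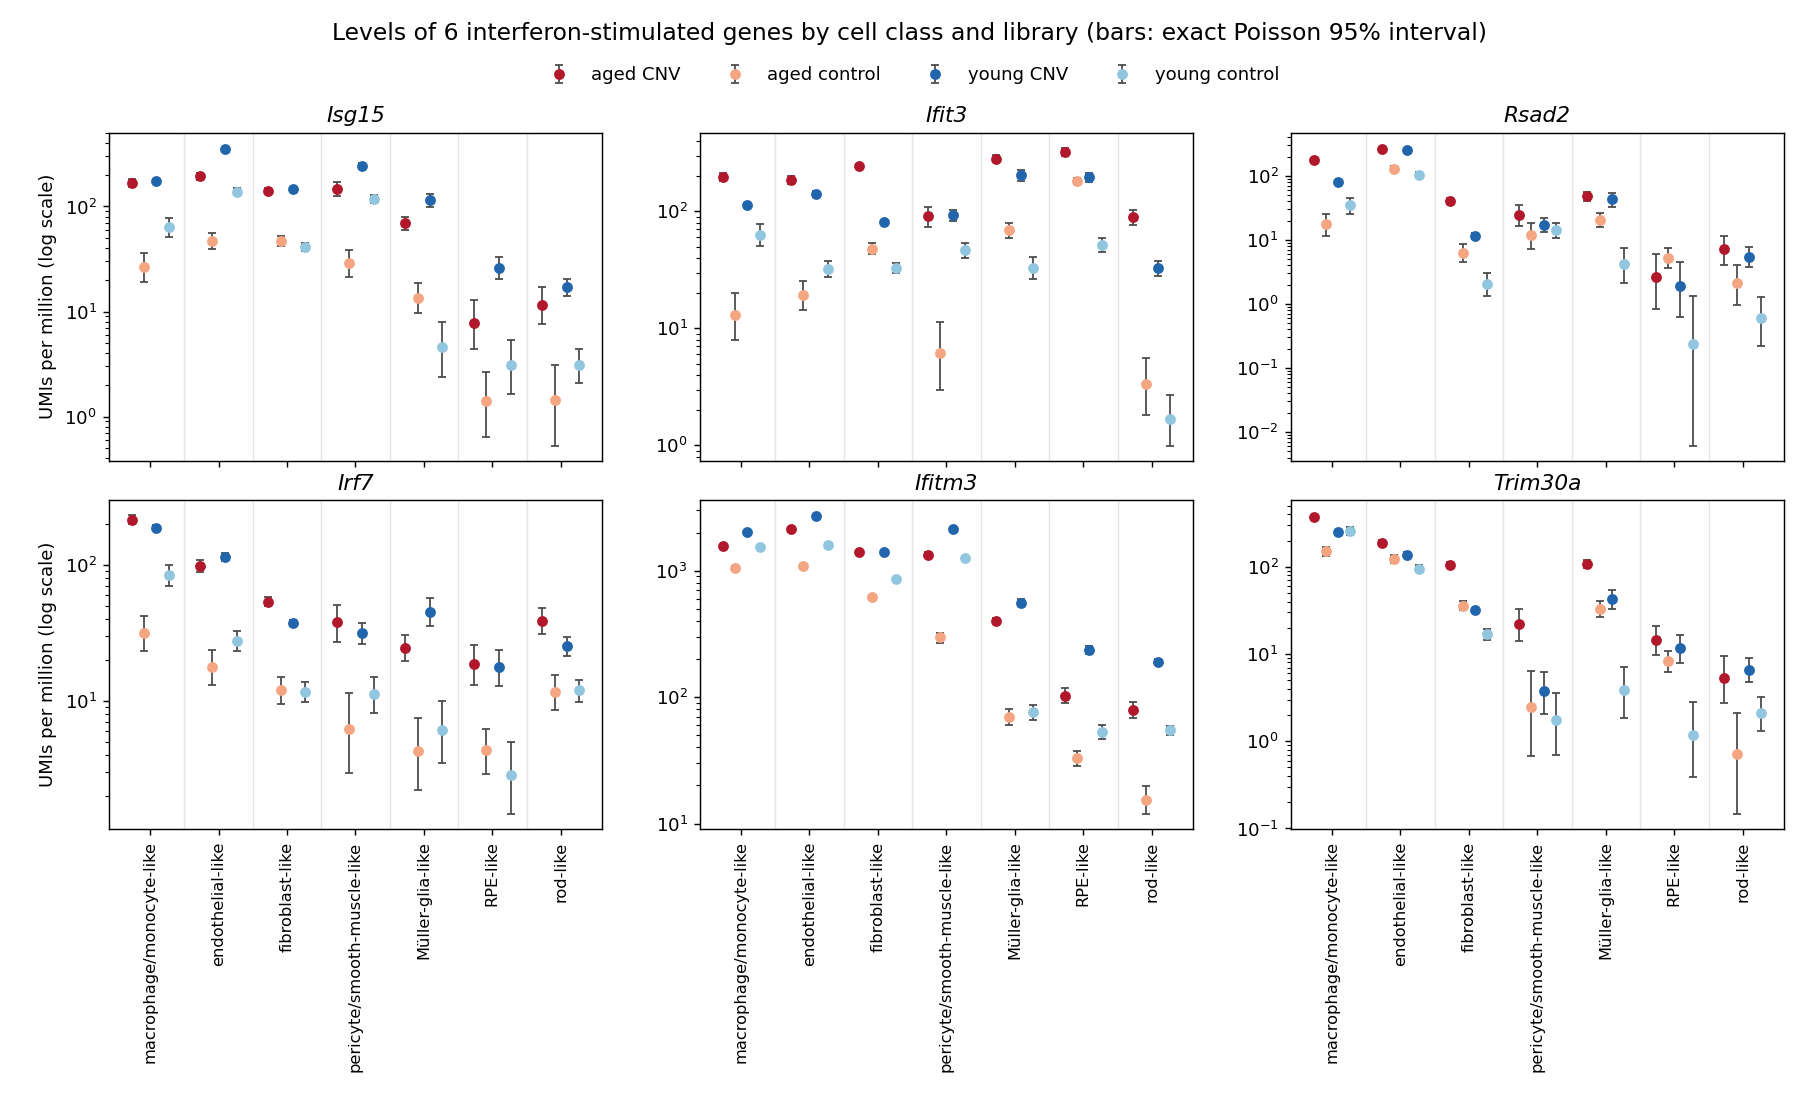
CPM (log axis) of Isg15, Ifit3, Rsad2, Irf7, Ifitm3 and Trim30a in 7 classes, with 1 point per library in the order aged CNV, aged control, young CNV and young control, and bars for the exact Poisson 95% interval. Irf7 lies higher in the CNV library than in the control of the same age in all 7 classes, while Rsad2 in RPE-like cells lies at 2.6 CPM in aged CNV and 5.27 CPM in aged control.

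Among leukocytes, macrophage/monocyte-like cells had 28 of 35 genes called higher in aged CNV over aged control (5.28% of all genes) and 8 of 35 in young CNV over young control (6.83%). The summed level of the 35 genes was 6121 CPM in aged CNV and 2543 CPM in aged control, and 5786 CPM in young CNV and 4228 CPM in young control. The CNV libraries were close, and the control libraries were not. All 8 genes called in young mice were also among the 28 in aged mice. With 80% of the 35 genes called in aged mice, most of any 8 would be shared. The overlap over all genes was not counted. The aged interval lay wholly above the young one for 27 of the 35 genes and wholly below it for 1; the difference of the 2 ratios was not tested. Different clusters made up the class in CNV and control: 1 cluster held 137 cells in aged CNV and 14 in aged control, and 381 in young CNV and 7 in young control. T-like cells had 15 of 31 genes called in aged mice (3.69%), led by Ifit1 at 71.1 CPM in aged CNV and 7.24 CPM in aged control.

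Neutrophil-like cells in the lesion held much of their own signal in few cells, as did some classes with low levels. There were 206 in aged CNV and 28 in aged control, with 22 of 31 genes called higher where 35.8% of all genes were. The 10% of aged CNV neutrophil-like cells with most of them held 56.5% of the class's thinned UMIs of the listed genes. In aged CNV that share was 59.57% in rod-like, 59.52% in cone-like and 59.23% in bipolar-like cells. It was 29.34% in macrophage/monocyte-like and 36.14% in T-like cells. The cluster led by S100a9, Retnlg and Csf3r, with 21 aged CNV and 26 aged control cells, had a summed level of 16360 CPM in aged CNV and 2043 CPM in aged control. In that cluster Rsad2 was at 1331 CPM in aged CNV and 17.8 CPM in aged control, and Isg15 at 1062 CPM in aged CNV and 26.7 CPM in aged control. The other cluster, led by Il1r2, Acod1 and Il1b and holding 185 of the aged CNV cells, had a summed level of 2885 CPM in aged CNV. Young neutrophil-like cells numbered 20 in young CNV and 3 in young control, too few to compare.

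In vessels and stroma, endothelial-like cells had 24 of 34 genes called higher in aged mice (6.79% of all genes) and 20 of 34 in young mice (5.25%). Ifit3 was at 187 CPM in aged CNV and 19.3 CPM in aged control, and at 140 CPM in young CNV and 32.5 CPM in young control. Pericyte/smooth-muscle-like cells had 22 of 29 called in aged mice (5.65%) and 11 of 31 in young mice (2.18%). Ifit1 there was at 59 CPM in aged CNV and 4.35 CPM in aged control, and at 97.3 CPM in young CNV and 55.8 CPM in young control. Fibroblast-like cells had 25 of 35 called in aged mice (7.2%) and 15 of 35 in young mice (4.95%). Ifi44 had the steepest young ratio in them, at 17.3 CPM in young CNV and 1.22 CPM in young control (14.2-fold, 8.53 to 25.5). All 20 endothelial-like and 15 fibroblast-like genes called in young mice were also called in aged mice. Of all the compared listed genes, 70.59 and 71.43% were called in aged mice in these classes, so most of any such set would be shared. The overlap over all genes was not counted here either. Melanocyte-like and Schwann-like cells, compared in young mice alone, had 7 of 29 (4.49%) and 11 of 27 (10.3%) called, among them Oasl2 at 47.6 CPM in young CNV and 14.9 CPM in young control melanocyte-like cells. A cluster led by Edn3, Pappa2 and Pgf, left unnamed, had 21 of 32 called in aged mice (2.92%) and 12 of 33 in young mice (2.22%).

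Müller-glia-like cells, the radial glia of the retina, had 19 of 30 genes called higher in aged mice (7.8% of all genes) and 20 of 26 in young mice (3.39%). Their summed level was 2977 CPM in aged CNV and 1167 CPM in aged control, and 2963 CPM in young CNV and 723 CPM in young control. Rtp4 was at 38.2 CPM in aged CNV and 7.14 CPM in aged control, and at 52.4 CPM in young CNV and 2.3 CPM in young control. Ifi44 had 6.78 CPM from 22 UMIs in aged CNV and none in aged control, a ratio of 6.34 with the control set at 3 counts. It reached the minimum of 20 UMIs through aged CNV alone, so its call upward followed from the rule. Of 26 genes compared at both ages, 16 were called in both, 4 in young mice alone and none in aged mice alone. The young interval lay wholly above the aged one for 9 of these and the reverse was found for 0.

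RPE-like cells, the pigment epithelium between retina and choroid, had the larger count in young mice, with 6 of 26 genes called higher in aged mice (4.63% of all genes) and 18 of 26 in young mice (4.66%). Ifit3 was at 325 CPM in aged CNV and 180 CPM in aged control, and at 195 CPM in young CNV and 52 CPM in young control. Irf7 was at 18.7 CPM in aged CNV and 4.34 CPM in aged control, and at 17.7 CPM in young CNV and 2.86 CPM in young control. So Irf7 passed the rule at both ages and Ifit3 in young mice alone. Rsad2 was the 1 gene called lower in aged mice (3.45% of all genes), at 2.6 CPM in aged CNV and 5.27 CPM in aged control, with an interval that included 1. It had a ratio above 1, at 0.80 on the log2 scale, when cells were picked by their own marker UMIs. Isg20 was called lower in young mice (2.86%), at 1.16 CPM in young CNV and 4.06 CPM in young control. Of the genes called higher, 2 of 6 in aged and 10 of 18 in young mice were at 0.1 or more of the level in the class with most of them.

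Among neurons, rod-like cells had 23 of 23 genes called higher in aged mice (6.59% of all genes) and 30 of 31 in young mice (6.93%), from low levels: 12 and 4 of the 35 genes were under 20 UMIs. A gene near that minimum that is almost all in 1 library had to differ, so these counts describe the compared genes and not all 35. Stat2 in rod-like cells was at 121 CPM in aged CNV and 31.9 CPM in aged control, and at 56.1 CPM in young CNV and 25.6 CPM in young control. Oasl2 was at 51.9 CPM in aged CNV and 1.67 CPM in aged control, and at 23.1 CPM in young CNV and 2.19 CPM in young control. When rod cells were picked by their own marker UMIs, Isg15, Ifi27, Ifih1, Parp14 and Samd9l turned to log2 ratios of -0.21, -0.24, -0.23, -0.040 and -0.60 in young mice. Bipolar-like cells had 26 of 30 genes called in aged mice (8.99%) and 7 of 11 in young mice (5.95%), amacrine-like cells 8 of 9 in aged mice (6.27%). Cone-like cells had 6 of 11 in aged mice (4.23%) and 2 of 5 in young mice (2.38%). Levels were low in these classes: Ifit1 in bipolar-like cells was at 12.8 CPM in aged CNV and 1.12 CPM in aged control. Of the bipolar-like genes called in aged mice, 2 of 26 were at 0.1 or more of the level in the highest class, and none of 6 cone-like ones were.

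Macrophage markers were higher in the CNV libraries also in classes that should lack them. All 11 markers fixed for that class had UMIs in the rod-like cells of both CNV libraries. Their summed level in rod-like cells was 347 CPM in aged CNV and 193 CPM in aged control, and 802 CPM in young CNV and 197 CPM in young control. These sums were 1.85, 0.937, 3.21 and 0.993% of the level in the macrophage/monocyte-like cells of the same 4 libraries, in that order. Ifit3 in rod-like cells was at 45.1, 25.7, 28.9 and 2.69% of its macrophage/monocyte-like level, and Isg15 at 6.96, 5.38, 9.73 and 4.84%. In Müller-glia-like cells the markers were at 0.708, 0.335, 1.09 and 0.305% and Ifit3 at 143, 532, 180 and 52.2%. In endothelial-like cells the markers were at 0.779, 0.582, 1.25 and 0.25% and Stat2 at 92.6, 118, 91.2 and 52.7%. Endothelial markers were also present in Müller-glia-like cells, at 2659 CPM in aged CNV and 3014 CPM in aged control, and at 2264 CPM in young CNV and 2450 CPM in young control. What part free RNA has in the low levels of neurons was not tested.

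Epithelial-like cells held the listed genes at like levels in young CNV and young control. In young mice 1 of 35 genes was called higher, Rsad2 at 4.71 CPM in young CNV and 1.19 CPM in young control (1.56% of all genes), and the median log2 ratio was -0.07. Isg15 was at 262 CPM in young CNV and 272 CPM in young control, and Irf7 at 46.5 CPM in young CNV and 50.4 CPM in young control. The summed level of the 35 genes was 2637 CPM in young CNV and 2621 CPM in young control, so the 2 libraries were alike. The macrophage markers in these cells were at 189 CPM in young CNV and 50.1 CPM in young control. In aged mice the class had 30 cells in aged control and was not compared. Erythroid-like cells in young mice had 5 genes with enough UMIs, none higher (23.8% of all genes) and 1 lower (4.39%), Isg15 at 98.6 CPM in young CNV and 295 CPM in young control.

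The number of listed genes found per cell was also counted; it follows from how often each gene was detected, and whether the genes were found together beyond that was not tested. After each cell was thinned to 1000 UMIs, 42.6% (37.4 to 47.9) of macrophage/monocyte-like cells held 5 or more of the 35 genes in aged CNV and 6.77% (3.14 to 12.5) in aged control. The shares were 35.8% (32.8 to 38.8) in young CNV and 18.9% (13.1 to 25.8) in young control. Intervals here are exact Clopper-Pearson 95% intervals. They take each cell as independent and cover counting error only, not differences between mice or libraries. Endothelial-like cells had 36.3% in aged CNV and 5.64% in aged control, and 36.4% in young CNV and 11.2% in young control. Fibroblast-like cells had 23.9% (21.4 to 26.6) in aged CNV and 3.70% in aged control. In young mice they had 11.7% (10.4 to 13) in young CNV and 3.57% in young control. Müller-glia-like cells had 18.6% in aged CNV and 1.92% in aged control, and 13.4% in young CNV and 0.917% in young control. In rod-like cells the share was 2.29% in aged CNV and 1.02% in young CNV, and 0 in both controls, with intervals up to 0.318% in aged control and 0.0867% in young control. No thinned cone-like cell of any library held 5. Thinning left out 252 cells of aged CNV, 217 of aged control, 464 of young CNV and 1889 of young control, of which 1609 were rod-like. Without thinning, where cells differ in depth, macrophage/monocyte-like cells had 91.5% in aged CNV and 75.9% in aged control, and 95.1% in young CNV and 85.1% in young control. Unthinned fibroblast-like cells had 88.7% in aged CNV and 89.8% in young CNV, so in both classes aged CNV lay above young CNV with thinning and below it without. Unthinned rod-like cells had 7.75% in aged CNV, 0.247% in aged control, 2.17% in young CNV and 0 of 5860 cells in young control. The bar chart of such cells puts these classes in order.

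**Figure D3:**
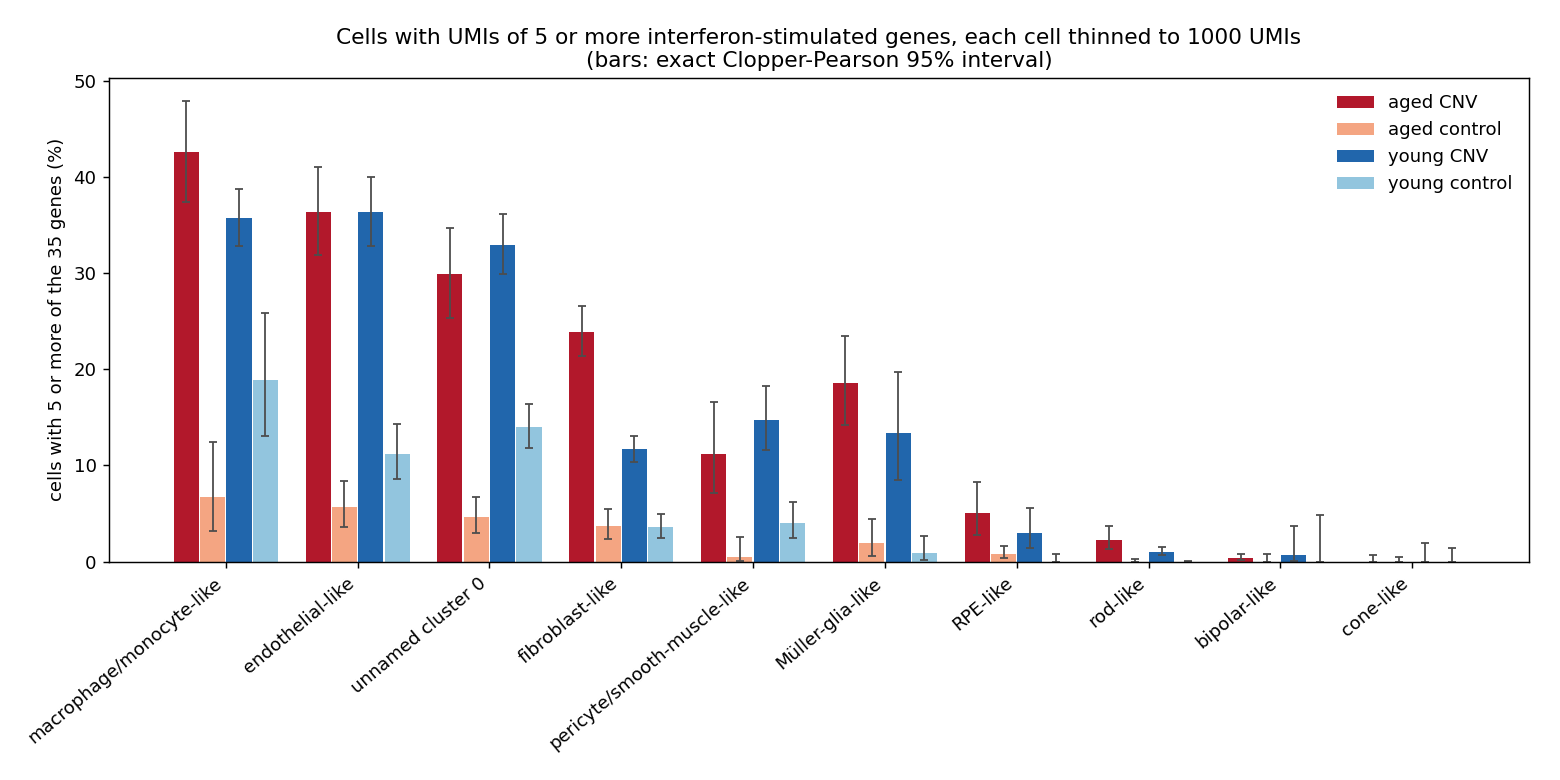
Share of cells (%) with UMIs of 5 or more of the 35 genes after thinning each cell to 1000 UMIs, in 10 classes, with bars for aged CNV, aged control, young CNV and young control and exact 95% intervals. Every class except cone-like has its CNV share above the control of the same age, and macrophage/monocyte-like cells of aged CNV reach 42.6%. In bipolar-like cells this rests on 5 cells of aged CNV and 1 of young CNV, and the CNV and control intervals overlap at both ages.

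Between the lesion libraries, some genes lay higher in aged mice across most classes and others lower. In aged CNV over young CNV, 70 of 390 pairs were at least 2-fold higher (17.95%) and 15 lower (3.846%), in 13 classes where 8.5 to 20.5% of all genes were higher and 3.99 to 9.17% lower. The pooled share called higher lay within the range of all genes, but the upper end of that range came from neutrophil-like (20.5%) and epithelial-like (18%) cells. By class, the share of listed genes ran from 0 in epithelial-like to 51.61% in neutrophil-like cells, so the pooled share does not stand for a class. The members' median was above that of all genes in 9 of the 13 classes. With libraries scaled by TMM the pairs called were 51 higher and 24 lower, and by median of ratios 52 and 22. Herc6 lay above a ratio of 1 in 12 of 12 classes, Stat2 in 13 of 13, and Ifih1 and Parp14 in 12 of 12 each. Isg15 lay below 1 in 10 of 12, Bst2 in 11 of 13, Rtp4 in 11 of 12, Ifitm3 in 10 of 13 and Xaf1 in 9 of 12. Scaled by TMM or by median of ratios, Herc6, Stat2, Isg15 and Rtp4 kept these counts, Ifih1 and Parp14 lay above 1 in 11 of 12, and Bst2 lay below 1 in 12 of 13. Ifitm3 lay below 1 in 12 of 13 by TMM and in 13 of 13 by median of ratios, and Xaf1 in 10 of 12 and 12 of 12 in the same order. A count of signs takes no account of size. In fibroblast-like cells Herc6 was at 67.1 CPM in aged CNV and 27.9 CPM in young CNV, while Isg15 was at 141 CPM in aged CNV and 147 CPM in young CNV. In epithelial-like cells Isg15 was at 81.4 CPM in aged CNV and 262 CPM in young CNV, and Herc6 at 22.5 CPM in aged CNV and 14.8 CPM in young CNV.

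By class, fibroblast-like cells had 12 of 35 genes higher in aged CNV than young CNV (11.7% of all genes) and none lower. Rsad2 there was at 40.5 CPM in aged CNV and 11.5 CPM in young CNV, 3.51-fold (3.08 to 4.01), and Ifit3 at 244 CPM in aged CNV and 80.7 CPM in young CNV, 3.02-fold (2.87 to 3.18). Rod-like cells had 11 of 29 higher (8.78%) and 2 lower (8.86%), with Ddx58 at 36.2 CPM in aged CNV and 9.32 CPM in young CNV. These cells numbered 761 in aged CNV and 2815 in young CNV. Dendritic-like cells had 7 of 35 higher (14.7%), with Dhx58 at 78.3 CPM in aged CNV and 21 CPM in young CNV. T-like cells had 7 of 30 higher (15.8%), with Usp18 at 34.5 CPM in aged CNV and 6.58 CPM in young CNV, and 1 lower (5.32%), Ifi27 at 90 CPM in aged CNV and 224 CPM in young CNV. Neutrophil-like cells had 16 of 31 higher (20.5%), from 20 young CNV cells, and their clusters differed between the libraries. The cluster led by S100a9, Retnlg and Csf3r held 21 cells in aged CNV and 1 in young CNV, and the cluster led by Il1r2, Acod1 and Il1b, with 185 and 19 cells in the same order, had a summed level of 2885 CPM in aged CNV and 1868 CPM in young CNV.

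In the other classes the shares of genes called higher lay near or below those of all genes. RPE-like, bipolar-like and cone-like cells had a larger share called lower than all genes did. None of the genes called lower in these 3 classes was at 0.1 or more of the level in the class with most of them. Macrophage/monocyte-like cells had 4 of 35 genes higher (9.4% of all genes), which were Ifit2, Ifi44, Rsad2 and Herc6; Herc6 was at 110 CPM in aged CNV and 53.6 CPM in young CNV. Endothelial-like cells had 2 of 34 higher (9.77%), Oasl1 and Oas2, and 1 lower (4.62%), Isg20 at 8.48 CPM in aged CNV and 23.1 CPM in young CNV. Pericyte/smooth-muscle-like cells had 2 of 31 higher (8.5%), Trim30a at 22 CPM in aged CNV and 3.74 CPM in young CNV and Samd9l at 66.9 CPM in aged CNV and 28.1 CPM in young CNV. Müller-glia-like cells had 3 of 31 higher (10.4%), Trim30a, Samd9l and Zbp1, and 1 lower (3.99%), Bst2 at 117 CPM in aged CNV and 341 CPM in young CNV. RPE-like cells had 2 of 24 higher (11.5%), Herc6 and Samd9l, and 2 lower (5.03%), Ifitm3 and Isg15, with Isg15 at 7.8 CPM in aged CNV and 26.2 CPM in young CNV. Bipolar-like cells had 3 of 31 higher (10.1%) and 5 lower (6.36%), and cone-like cells 1 of 9 higher (10.4%) and 2 lower (5.94%). With predicted doublets kept, Zbp1 and Phf11d, among the lower bipolar-like genes, turned to log2 ratios of 0.26 and 0.21. Epithelial-like cells had none of 35 higher (18%) and 1 lower (4.3%), which was Isg15. In the unnamed cluster led by Edn3, Pappa2 and Pgf 3 of 33 were higher (7.98%) and 1 lower (6.57%), Xaf1.

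Without lesions the ages differed in opposite directions by class. In aged control over young control, 35 of 220 pairs in 9 classes were at least 2-fold higher (15.91%) and 53 lower (24.09%), where 5.63 to 11% of all genes were higher and 3.36 to 12.5% lower. RPE-like cells had 16 of 27 genes higher (11%) and 2 lower (3.36%), and Müller-glia-like cells 11 of 26 higher (6.29%). Pericyte/smooth-muscle-like cells had 14 of 29 lower (12.5%) and none higher (7.14%). Macrophage/monocyte-like cells had 13 of 33 lower (7.29%) and none higher (9.64%), and endothelial-like cells 8 of 32 lower (7.04%) and none higher (7.44%). Different clusters made up the macrophage/monocyte-like class in the controls: the cluster led by Cd163, F13a1 and Cd209f held 11 cells in aged control and 63 in young control, that led by Ccl4, Cd86 and Ccl3 held 20 and 73, that led by Spp1, Gpnmb and Fabp5 held 38 and 1, and that led by Chil3, Ly6c2 and Gpr141 held 43 and 8, in the same order. Within the cluster led by Ccl4 the summed level of the 35 genes was 2287 CPM in aged control and 3699 CPM in young control, and within that led by Cd163 it was 2480 CPM in aged control and 4235 CPM in young control. Fibroblast-like cells had 3 of 32 higher (7.28%), which were Ifi44, Rsad2 and Trim30a, and 1 lower (7.3%), which was Ifit1. In rod-like cells 3 of 21 were higher (5.63%) and 5 lower (10%), and bipolar-like cells had 2 of 13 higher (9.91%) and 7 lower (10.3%). Cone-like cells had none of 7 higher (8.37%) and 3 lower (6.52%). The unnamed cluster led by Edn3, Pappa2 and Pgf had 2 of 32 higher (7.23%), Ifi44 and Trim30a, and 7 lower (6.98%), among them Ifit1 at 55.9 CPM in aged control and 250 CPM in young control. The young control library was the shallow one, at a median of 2593 UMIs per cell; in cells thinned to 1000 UMIs 14 pairs were higher and 21 lower, of 108 that still had 20 UMIs.

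Ifit1 shows the opposite directions. In RPE-like cells it was at 28.4 CPM in aged control and 7.16 CPM in young control, 3.97-fold higher (2.69 to 6.05), and in Müller-glia-like cells at 28.5 CPM in aged control and 6.13 CPM in young control. In pericyte/smooth-muscle-like cells it was at 4.35 CPM in aged control and 55.8 CPM in young control, and in macrophage/monocyte-like cells at 3.24 CPM in aged control and 22.2 CPM in young control. So Ifit1 was higher in the aged control library in RPE and glia and lower in vessel wall and macrophages. Rtp4 did the same, at 17.4 CPM in aged control and 6.68 CPM in young control RPE-like cells, and at 19.4 CPM in aged control and 109 CPM in young control macrophage/monocyte-like cells. Trim30a in Müller-glia-like cells was at 33.2 CPM in aged control and 3.83 CPM in young control, 8.66-fold higher (4.51 to 18.7). It was also higher in the lesion libraries of that class, at 107 CPM in aged CNV and 42.2 CPM in young CNV. In the unnamed cluster led by Edn3, Pappa2 and Pgf, Trim30a was at 66.6 CPM in aged CNV and 5.43 CPM in young CNV, 12.3-fold higher (8.77 to 17.5). Ifitm3 was below a ratio of 1 in 9 of 9 classes, also with either other scaling, from 10.6 CPM in aged control and 73.7 CPM in young control bipolar-like cells to 1041 CPM in aged control and 1544 CPM in young control macrophage/monocyte-like cells. Of the 16 RPE-like genes called higher, 10 were at 0.1 or more of the level in the class with most of them.

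**Figure D4:**
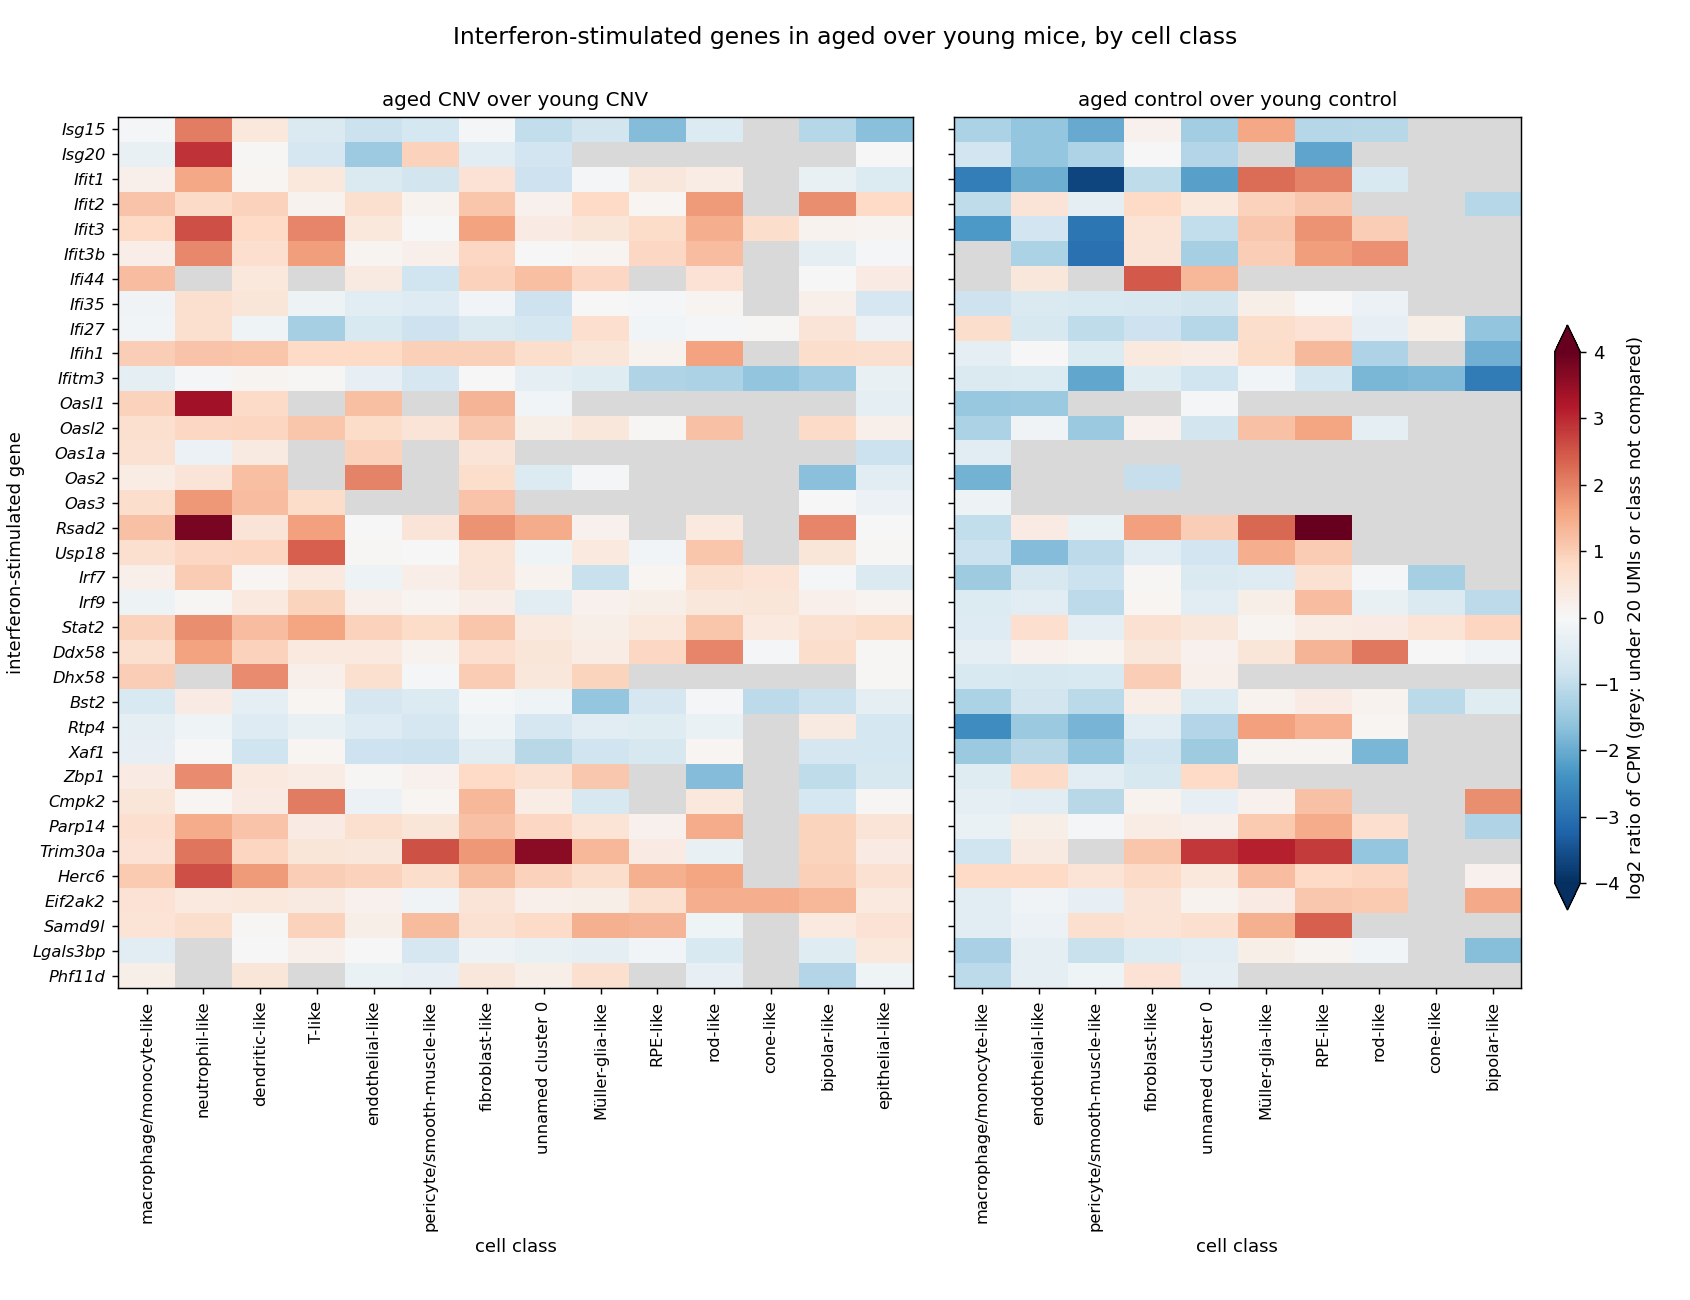
Log2 ratio of CPM in aged over young mice for the 35 genes (rows) by class (columns), aged CNV over young CNV on the left and aged control over young control on the right; grey marks genes with under 20 UMIs. On the right, macrophage/monocyte-like and pericyte/smooth-muscle-like columns are mostly blue (13 and 14 genes at least 2-fold lower in aged control) and the RPE-like column mostly red (16 genes higher).

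The laser comparison of macrophage/monocyte-like cells is made from these same control libraries, so its larger ratio in aged mice and the lower aged control level are 1 set of values. For Ifit3 the 4 values were 198 CPM in aged CNV, 12.9 CPM in aged control, 113 CPM in young CNV and 63.1 CPM in young control. In RPE-like cells the order of the controls was the other way, with 325 CPM in aged CNV, 180 CPM in aged control, 195 CPM in young CNV and 52 CPM in young control. The aged control RPE-like level was thus close to that of young CNV.

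Genes of the pathway itself passed the 2-fold rule in a smaller share of pairs than the 35 genes. A list of 39 receptors, kinases, sensors, transcription factors and inhibitors had 28 with a row; Ifnb1, several Ifna genes, Ifne, Ifnl2, Ifnl3 and Trex1 were among those not analysed here. In aged CNV over aged control 37 of 240 pairs of these genes and classes were at least 2-fold higher and 2 lower, and in young CNV over young control 21 of 250 higher and 7 lower. All genes passed upward at 3.69 to 35.8% by class in aged mice and at 1.56 to 23.8% in young mice, ranges that hold the shares of the pathway list. The upper ends were neutrophil-like cells in aged mice and erythroid-like cells in young mice. Without these the highest were 8.99% in aged bipolar-like and 10.3% in young Schwann-like cells. Class medians of the pathway genes lay between -0.35 and 0.50 on the log2 scale over both laser comparisons. Socs3, the feedback inhibitor of cytokine receptors, was higher in Müller-glia-like cells, at 50.6 CPM in aged CNV and 5.71 CPM in aged control, and at 131 CPM in young CNV and 32.6 CPM in young control.

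A further list of 40 interferon-responsive genes lay between the pathway and the 35 genes in most classes. In aged CNV over aged control 163 of 336 pairs were higher and 5 lower, and in young CNV over young control 99 of 344 higher and 5 lower, beside the same shares of all genes (3.69 to 35.8% by class in aged mice and 1.56 to 23.8% in young mice). Cxcl10, a chemokine for T cells, was at 59.2 CPM in aged CNV and 3.67 CPM in aged control fibroblast-like cells, 16.1-fold higher (10.8 to 25.1). Cxcl9, a related chemokine known to be driven by interferon gamma, went the other way in macrophage/monocyte-like cells, at 4.58 CPM in aged CNV and 181 CPM in aged control. Irf1, a gene of the pathway list, differed between the controls of the same class, at 101 CPM in aged control and 458 CPM in young control. The plot of class medians sets the lists side by side.

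**Figure D5:**
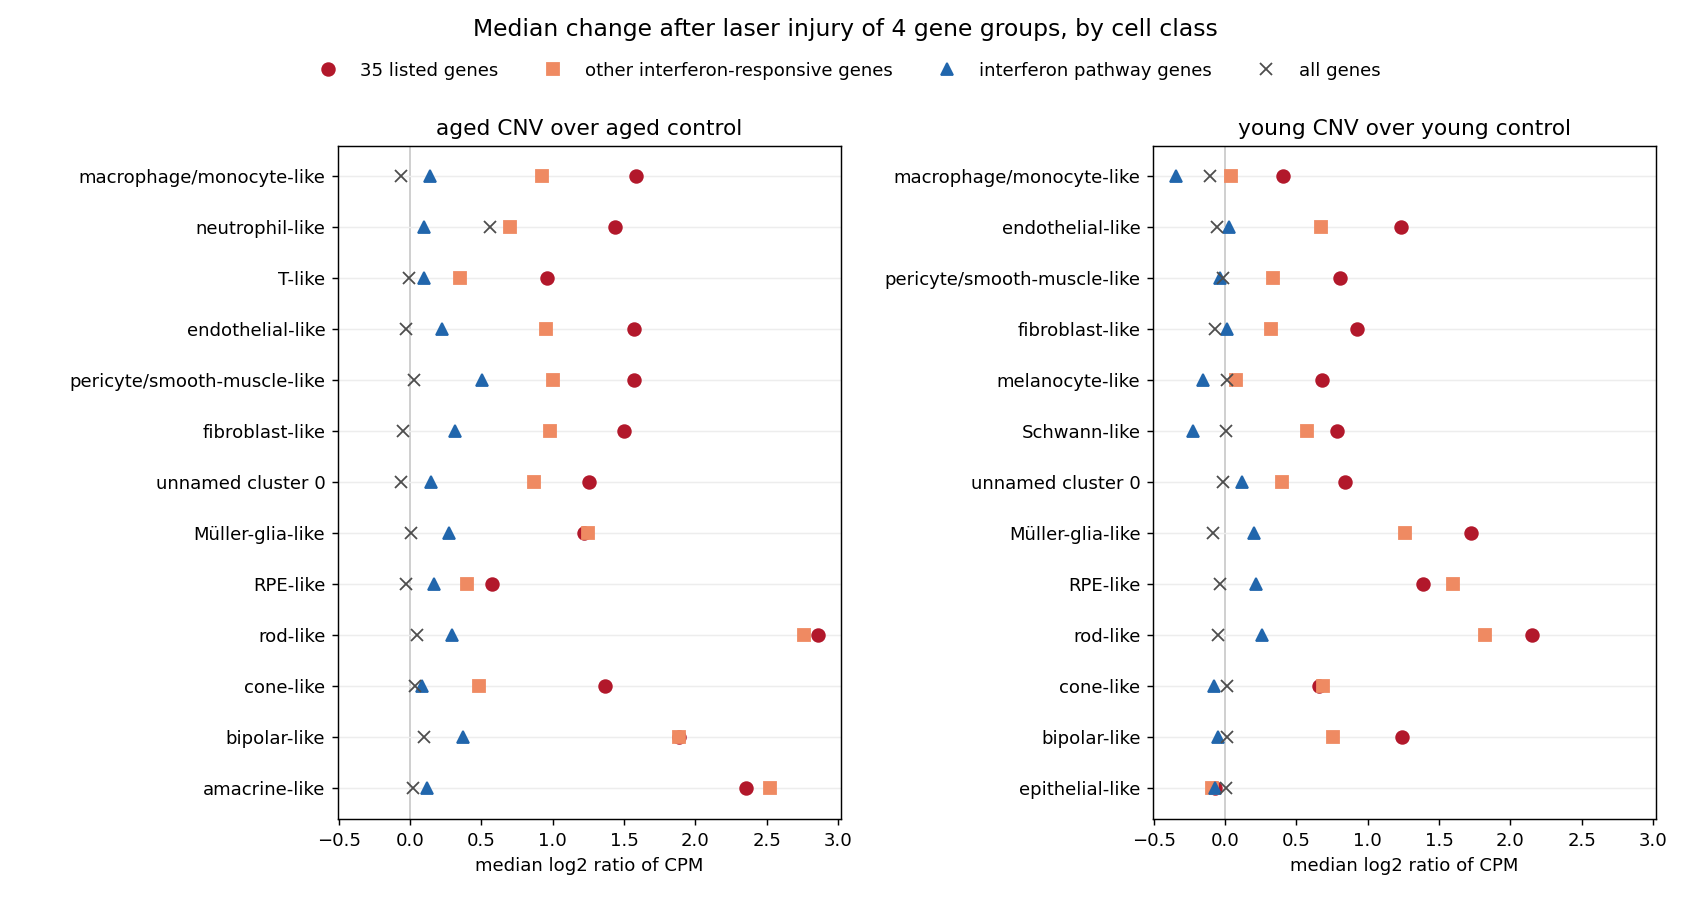
Median log2 ratio of CPM after laser (x axis) of the 35 genes, the other interferon-responsive genes, the pathway genes and all genes, by class (y axis), aged CNV over aged control on the left and young CNV over young control on the right. The 35 genes reach 2.86 in aged and 2.15 in young rod-like cells, while the pathway medians stay between -0.35 and 0.50.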

How the data were processed

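The assay was 10x Genomics droplet single-cell RNA sequencing of retina and choroid, 1 library per group. The values are the counts that the authors deposited, unnormalized UMIs in 1 table of 24783 genes by 36701 cells, whose column prefixes were read as young (y) or aged (e) and CNV or control. The genome was mm10 and the tools Seurat 4.1.1 and Cell Ranger, per the submitters' processing notes; gene models and the version of the second tool were not given in the sources used here.

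Lowest UMIs per cell were 500 to 507, so a cell filter had already been applied. Scrublet scores over 0.2 removed 276, 245, 303 and 276 cells as predicted doublets (aged CNV, aged control, young CNV, young control), which left 35601. Cells were clustered with scanpy 1.11.5 and leidenalg 0.10.2 in Python 3.11.15, on 2000 variable genes, 40 components, 20 neighbours and resolution 1.0. All listed interferon genes were left out of the variable genes, and leukocyte clusters, those where 30% of cells or more had Ptprc, were split further. The 63 clusters were named from at least 3 markers, and 4185 cells in 13 clusters stayed unnamed.

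For each library, the UMIs of a class were added up and divided by the class total (CPM). A ratio of at least 2 with at least 20 UMIs was called, where each library held 50 or more cells of the class (20 for neutrophil-like). A library with 0 UMIs was set at 3 counts. Ratio intervals are exact conditional binomial, levels exact Poisson and shares exact Clopper-Pearson, all at 95% and for counting error only. The interval code was tested on simulated data. Per class and comparison up to 5 genes a direction were named, by the interval bound nearest 1, besides genes called in at least 2 classes. Of those, the text gives a selection by role. Members, lists and markers were chosen with earlier results of these data known. Scaling alternatives used edgeR 4.0.16 in R 4.3.3.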

Additional observations from a re-analysis of the deposited data

How the results depend on the processing

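No replicate could be left out, since each group is 1 library. No paired analysis was possible because the groups share only the number 1, a single library each. Of the ratios recomputed under the alternatives, 4473 moved by less than their counting interval, 362 by more and 16 turned direction. That total is no measure of stability, since some alternatives cannot change a ratio: 50 UMIs (442), no minimum (550) and genes open to free RNA left out (399). In cells thinned to 1000 UMIs 176 moved by less, 120 by more and 2 turned. By own marker UMIs these were 405, 90 and 10, and in the largest shared cluster alone 368, 88 and 1. The counts of higher genes after laser, 224 in aged and 150 in young mice, became 219 and 165 with TMM scaling, and 167 and 107 without genes under 0.1 of their level in the highest class of the library. Cells thinned to 1000 UMIs gave 122 in aged mice, of 189 pairs that still had 20 UMIs. Leaving out the macrophage cluster led by Spp1 and Gpnmb, chosen after seeing the data, gave 227 and 151. The 1 lower gene in aged mice became 0 with 50 UMIs, thinned, by own marker UMIs or without genes open to free RNA, and 3 with no minimum. The 2 lower in young mice became 1 with 50 UMIs or without genes open to free RNA, 0 thinned and 6 with no minimum. For aged control over young control, 35 higher became 14 thinned and 23 without genes open to free RNA, and 53 lower became 21 thinned. For aged CNV over young CNV, 15 lower became 24 with TMM, 23 with no minimum and 4 without genes open to free RNA. All genes shifted together by -0.232 to 0.342 (log2) under TMM and by -0.156 to 0.356 under median of ratios.

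Log2 ratios that turned direction are given with the reported value in brackets. By own marker UMIs, in rod-like cells after laser in young mice, Isg15 had -0.21 (2.46), Ifi27 -0.24 (1.36), Ifih1 -0.23 (2.19), Parp14 -0.040 (3.08) and Samd9l -0.60 (1.87). In RPE-like cells after laser in aged mice Rsad2 had 0.80 (-1.02). In aged control over young control, rod-like Ifit3b had -0.51 (1.84) and Eif2ak2 -0.50 (1.03), and bipolar-like Ifit2 1.52 (-1.14). In aged CNV over young CNV, rod-like Zbp1 had 0.34 (-1.74). Thinned, neutrophil-like Irf7 after laser in aged mice had -0.33 (1.08) and macrophage/monocyte-like Oasl2 in aged control over young control 0.16 (-1.26). With predicted doublets kept, Müller-glia-like Isg15 in aged control over young control had -0.072 (1.56), and bipolar-like Zbp1 and Phf11d in aged CNV over young CNV 0.26 (-1.0) and 0.21 (-1.16). In the largest shared cluster alone, macrophage/monocyte-like Ifit2 in aged control over young control had 0.10 (-1.02). The cause was not tested.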
